A study of Rattus norvegicus with 32 samples.

Results

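Gene expression was compared between 16 obese Zucker rats that ate added polyunsaturated oil and 8 obese Zucker rats that did not, 24 of the 32 rats measured. The 16 rats were those labelled Obese-ALA (n = 8) or Obese-LA (n = 8), and the 8 were those labelled Obese control. All 24 were males of the Zucker obese genotype, aged 18 weeks, and 1 Affymetrix array was made per rat from the red tibialis anterior, the oxidative portion of a hindlimb muscle. Obese controls had free access to AIN-93G, a purified rodent diet. The ALA diet was AIN-93G with 10% flaxseed oil, rich in alpha-linolenic acid, and the LA diet was AIN-93G with 10% safflower oil, which the labels name for linoleic acid. Both were fed for 12 weeks in amounts matched to the calories that obese controls ate. Every oil-fed rat was pair-fed and no obese control was, so added oil and pair-feeding cannot be told apart. The 8 lean Zucker rats on unrestricted AIN-93G entered the fit through the shared estimate of spread, and their levels are given for reference.

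Polyunsaturated fatty acids are known, mainly from liver, to act on genes by a pair of routes. They restrain SREBP-1c, the transcription factor encoded by Srebf1 that switches on fatty acid synthesis and desaturation, and they bind PPARs, nuclear receptors that switch on genes of fatty acid uptake and oxidation. Skeletal muscle makes little fat of its own, and obese Zucker muscle is used as a model of muscle that receives more lipid than it burns.

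Values are log2 intensities, so a difference of 1 is a doubling, and 10918 genes were tested, each by 1 array feature. Skeletal muscle fibre markers had a mean level between 12.06 and 12.20 in all 32 rats, as the tissue label requires. Obese control rats 4, 5 and 7 stood apart from the other 5 obese controls in earlier results of these data, so values are given with them and without them. Differences between obese and lean controls are the exception and always include these 3 rats. A gene is said to have a common direction where the mean of each oil group lay on the same side of the obese control mean, both with all arrays and without these 3 rats. The oil groups share the obese controls, so the same sign in both is not evidence from separate samples. In a whole muscle sample, fewer cells of a type and less RNA per cell cannot be told apart.

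No gene passed the test for both oil diets together. With limma and an adjusted p below 0.05, 0 of 10918 genes (0%) differed between the 16 oil-fed rats and the 8 obese controls, and the smallest adjusted p was 0.538. Without obese controls 4, 5 and 7 the count was 0 (0%) as well, with a smallest adjusted p of 0.999. Neither oil alone differed from the obese controls in any gene: 0 genes (0%) were called for ALA, smallest adjusted p 0.348, and 0 (0%) for LA, smallest adjusted p 0.252. At an unadjusted p below 0.05 ALA had 918 genes (8.41%) and LA 682 (6.25%). For comparison, obese and lean controls differed in 192 genes (1.76%) in the same limma fit. In no gene did all 16 oil-fed rats lie above all 8 obese controls (0%), and in none did all lie below (0%).

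At an unadjusted limma p below 0.05, 803 genes differed (7.35%), of which 407 were higher with oil (3.73%) and 396 lower (3.63%). When each array was centred on its median, 61.1% of such genes were higher, against 50.7% as deposited, and the median of all genes moved from -0.003 to 0.008. Without obese controls 4, 5 and 7 the number was 403 (3.69%), with 232 higher (2.12%) and 171 lower (1.57%), and without obese control 7 alone it was 437. A common direction was found for 4377 genes (40.1%), 2025 of them higher (18.5%) and 2352 lower (21.5%). Those with a common direction and an unadjusted p below 0.05 in both fits numbered 157 (1.44%), 87 higher (0.797%) and 70 lower (0.641%).

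The fit also bounds how large a shared response could be. Differences had a standard error of 0.0758 log2 units at the median, and the 95% confidence interval lay wholly within 0.5 log2 units of 0 for 94.9% of genes and within 1 log2 unit for 99.2%. The difference itself was under 0.25 log2 units in 95.8% of genes, was 0.5 or more in 77 genes, and reached 1 in 3. These intervals are not adjusted for the number of genes.

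The 24 genes named here come nearest to the test in both fits, 12 in each direction, and none of them passed it. Mid1ip1, lower with oil, had the smallest unadjusted p of the 24 with all arrays. It encodes a protein that binds acetyl-CoA carboxylase, the first committed enzyme of fatty acid synthesis, and promotes its assembly into the active polymer. Its level in the obese controls ran from 7.65 through a median of 7.72 to 8.09, in the ALA rats from 7.15 through 7.41 to 7.65, and in the LA rats from 7.09 through 7.54 to 7.75. Of the 16 oil-fed rats, 15 lay below every obese control, and the exception was LA rat 4 at 7.75. The oil-fed mean was 0.38 log2 units lower (1.30-fold, SE 0.0874, 95% interval -0.56 to -0.20, limma adjusted p = 0.538, exact two-sided permutation p = 4.76e-05 before any adjustment). Each oil gave nearly the same value, -0.40 for ALA and -0.36 for LA, and the difference between the oils was -0.04 (limma unadjusted p = 0.663). The pooled difference was -0.34 when obese controls 4, 5 and 7 were left out. Lean controls had a mean of 7.30, and Mid1ip1 was 0.50 higher in obese than in lean controls (limma adjusted p = 0.00471).

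**Figure D1:**
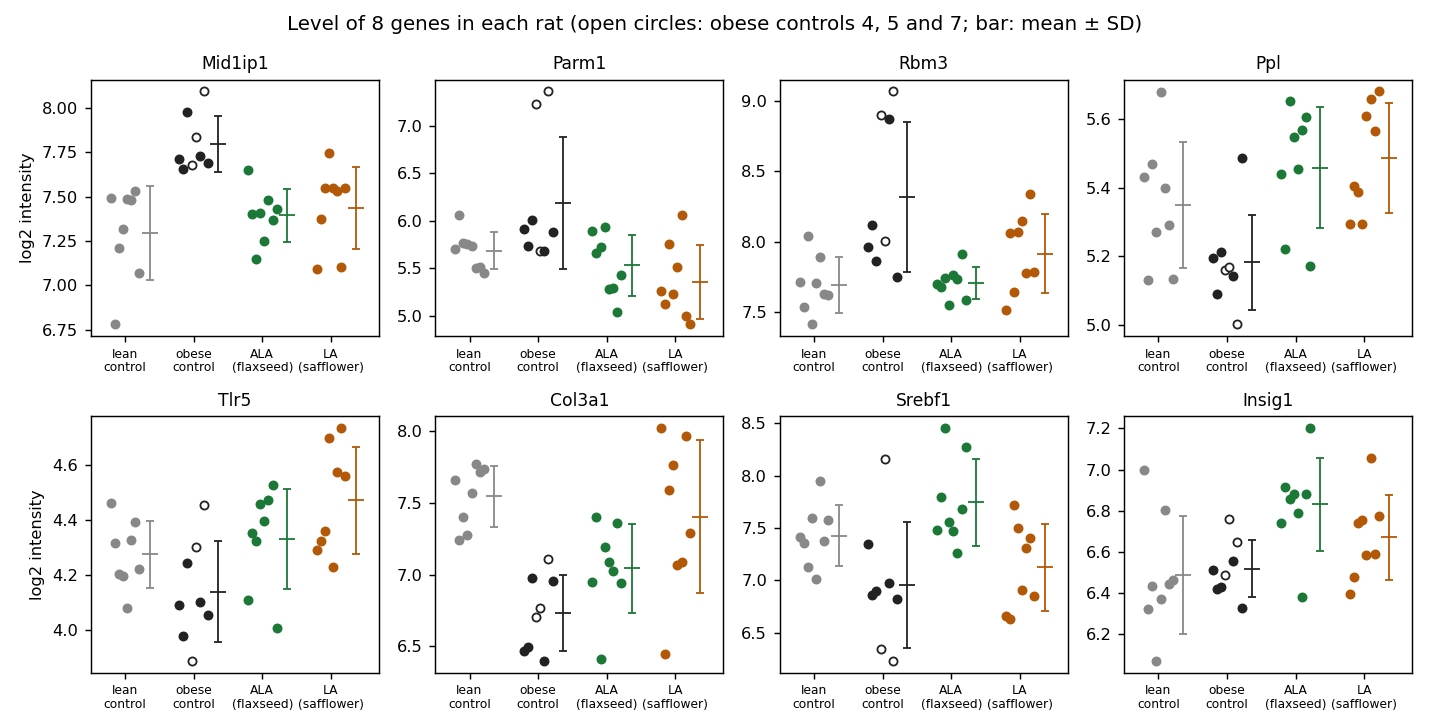
Log2 intensity (y axes, each with its own range) of Mid1ip1, Parm1, Rbm3, Ppl, Tlr5, Col3a1, Srebf1 and Insig1 in every rat of the 4 groups (x axes). Each circle is 1 rat, open circles are obese controls 4, 5 and 7, and bars show the mean ± SD of 8 rats. For Mid1ip1, 15 of 16 oil-fed rats sit below all obese controls, while for Parm1 obese controls 4 and 7 lie far above the rest.

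The stretches of DNA around the starts of Mid1ip1 and Insig1 are shown because both encode regulators of lipid synthesis, 1 lower and 1 higher with each oil in both fits, and each has a single start in the table used. Insig1 encodes a membrane protein of the endoplasmic reticulum that holds SREBP precursors there when sterols are plentiful, and its values are given with the lipid genes. Both promoters are from RefSeq on GRCr8, on the minus strand, 5′ to 3′, with 250 bases before the start and 50 after it. Capitals mark the letters CACGTG, an E-box, and GGGCGG, a GC box, searched on both strands, so that GGGCGG also appears as CCGCCC.
Mid1ip1, chrX:14735671-14735970: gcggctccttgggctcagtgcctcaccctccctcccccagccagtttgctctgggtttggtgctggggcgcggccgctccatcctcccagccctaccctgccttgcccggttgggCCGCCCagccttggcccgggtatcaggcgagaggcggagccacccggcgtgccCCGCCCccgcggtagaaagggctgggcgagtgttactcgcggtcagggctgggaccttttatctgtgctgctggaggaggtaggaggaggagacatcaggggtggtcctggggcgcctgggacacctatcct
Insig1, chr4:8057720-8058019: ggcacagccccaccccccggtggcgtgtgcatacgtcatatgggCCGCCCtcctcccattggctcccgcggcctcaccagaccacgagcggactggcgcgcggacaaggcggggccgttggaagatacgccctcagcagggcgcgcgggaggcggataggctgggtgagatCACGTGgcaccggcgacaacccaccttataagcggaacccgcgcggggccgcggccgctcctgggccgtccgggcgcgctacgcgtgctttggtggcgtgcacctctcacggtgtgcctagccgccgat
The Mid1ip1 window held 2 GC boxes and the Insig1 window 1 GC box and 1 E-box. Among 33469 rat promoters of this length, 33.1% held a GC box and 6.42% an E-box. These matches describe the letters only.

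Parm1, which encodes a mucin-like membrane protein, had the largest difference of the 24. Its level ran from 5.68 through a median of 5.89 to 7.37 in the obese controls and from 4.91 through 5.36 to 6.06 in the 16 oil-fed rats. Obese controls 4 and 7, at 7.24 and 7.37, lay far above the other 6, which overlapped with the oil-fed rats. The difference was -0.74 (SE 0.179, limma adjusted p = 0.538) and shrank to -0.40 without obese controls 4, 5 and 7. It was -0.66 for ALA and -0.83 for LA.

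The other 10 genes of this direction were lower by smaller amounts. Fcrlb, an Fc receptor-like gene of the immune system, ranged from 3.85 through 4.38 to 4.77 in the obese controls and from 3.78 through 4.02 to 4.31 with oil, a difference of -0.34 (SE 0.0896) that was -0.37 without the 3 rats. All 16 oil-fed rats lay under the control median, although the groups overlapped. Sectm1a, an immune gene, differed by -0.21 (SE 0.0527) and -0.20 without them, and Amh, the gene of anti-Müllerian hormone, by -0.20 (SE 0.0541) in both fits. In these genes, too, all 16 oil-fed rats were under the control median. Ppox, an enzyme of haem synthesis, differed by -0.19 and Chrna10, a nicotinic acetylcholine receptor subunit, by -0.24. The remaining values were -0.18 for Zbtb6, a zinc finger gene, -0.18 for Treml4, a myeloid receptor gene, and -0.20 for Mrgprx2, whose human counterpart is a mast cell receptor. Hnrnpl-ps2 at -0.31 and pramef20-ps3 at -0.36 are named as pseudogenes in the annotation, and whether their probes also bind RNA of related genes was not tested. For all 10, both oils lay below the controls, from -0.12 (Treml4, LA) to -0.43 (pramef20-ps3, ALA).

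Among the 12 genes higher with oil, Ppl had the smallest unadjusted p with all arrays. It encodes periplakin, which ties cell junctions to the cytoskeleton. Its level ran from 5.00 through 5.17 to 5.49 in the obese controls, from 5.17 through 5.50 to 5.65 in the ALA rats and from 5.29 through 5.49 to 5.68 in the LA rats. Obese control 8, at 5.49, was alone among the controls in reaching the middle of the oil-fed range, and all 16 oil-fed rats were above the control median. The difference was 0.29 (1.22-fold, SE 0.072, 95% interval 0.14 to 0.44, limma adjusted p = 0.538, exact two-sided permutation p = 0.000498 unadjusted), with 0.28 for ALA and 0.30 for LA. It was 0.25 without the 3 controls.

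Col3a1 and Serpinh1 belong to collagen production. Col3a1, the chain of type III collagen, ran from 6.40 through 6.74 to 7.11 in the obese controls, from 6.41 through 7.05 to 7.40 in the ALA rats and from 6.45 through 7.44 to 8.02 in the LA rats. It was 0.49 higher with oil (1.41-fold, SE 0.143, limma adjusted p = 0.598) and 0.57 higher without the 3 controls. ALA rat 3 and LA rat 2 lay at the low end of the controls, 8 oil-fed rats lay above all of them, and the lean mean was higher still, at 7.55. Serpinh1, the collagen chaperone HSP47, ran from 6.72 through 7.13 to 7.29 in the controls and from 6.76 through 7.37 to 7.76 with oil, a difference of 0.26 (SE 0.0734) that was 0.29 without the 3 rats. For both genes LA gave the larger value: 0.67 against 0.31 for Col3a1, and 0.39 against 0.13 for Serpinh1. The difference between the oils was -0.26 for Serpinh1, ALA minus LA (limma unadjusted p = 0.00433), and -0.36 for Col3a1 (unadjusted p = 0.0374). In that comparison of the oils 0 genes (0%) were called, with 758 at an unadjusted p below 0.05 (6.94%).

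Tlr5, the receptor for bacterial flagellin, was 0.26 higher with oil (SE 0.0747) and 0.31 without obese controls 4, 5 and 7, with 15 of 16 oil-fed rats above the control median. Scube2, which releases Hedgehog ligands from cells, was 0.34 higher in both fits, and Capn6, a calpain without protease activity, 0.38 and 0.40. All 16 oil-fed rats were above the control median in both genes, and 9 of them above all controls. Selenom, a selenoprotein of the endoplasmic reticulum, was 0.31 higher and Arrb1, which encodes beta-arrestin 1, 0.26. Vps45, needed for vesicle fusion in the endosomal system, was 0.18 higher, Plac9 0.19, Cd300lf, an inhibitory receptor of myeloid cells, 0.22, and Glycam1, a mucin that carries selectin ligands, 0.23. The LA mean was above the ALA mean for Tlr5, Scube2, Capn6, Selenom, Arrb1 and Plac9, and below it for Vps45, Cd300lf and Glycam1. Cd300lf and Glycam1 had control means of 3.27 and 3.51, close to the lower limit of 3.35 set for testing, where array intensities compress differences. Other named genes were also dim, near the array medians of 3.83 to 3.99 over all features. In the obese controls Capn6 ran from 3.31 to 3.98, Hnrnpl-ps2 from 3.50 to 4.08 and Tlr5 from 3.89 to 4.45.

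**Figure D2:**
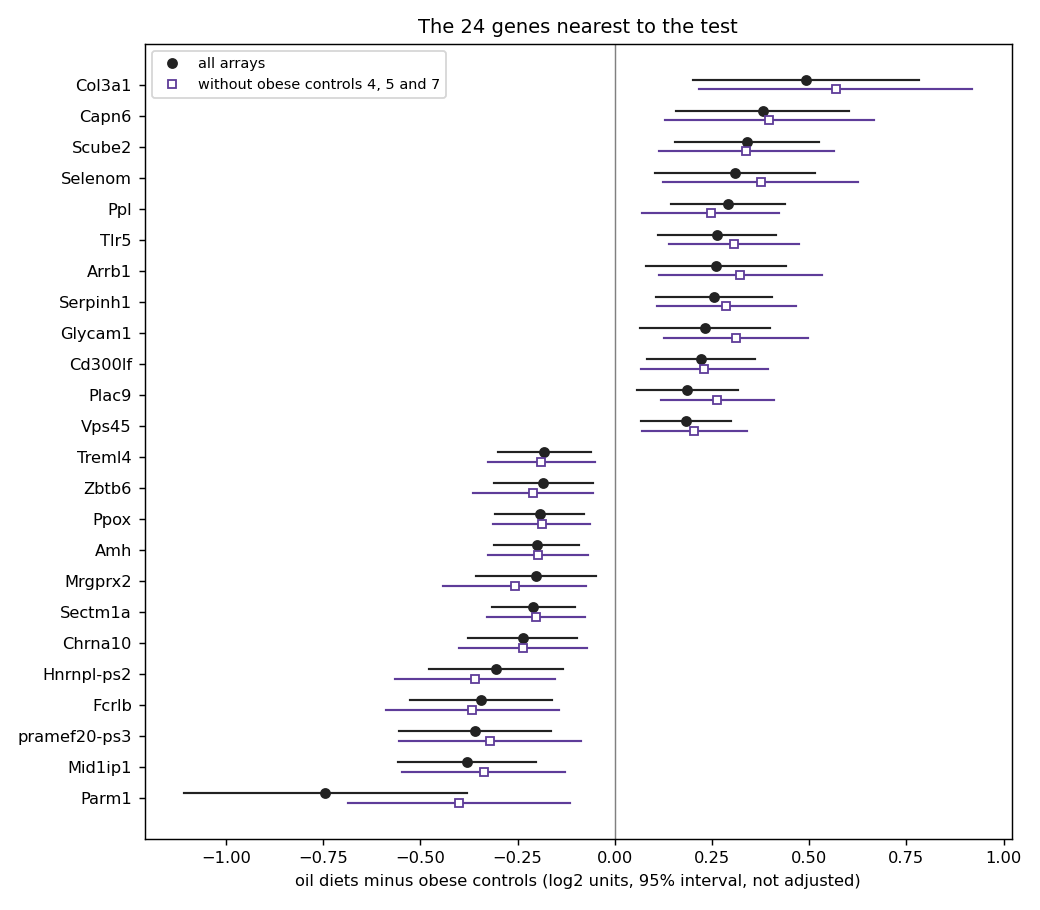
Difference in log2 units (x axis), oil diets minus obese controls, for the 24 genes named by the rule (y axis). Filled circles use all arrays, open squares leave out obese controls 4, 5 and 7, and lines are 95% confidence intervals from limma, not adjusted. No gene passed the adjusted test, and Parm1 moves most between the fits, from -0.74 to -0.40.

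The genes of fatty acid synthesis and desaturation were the first list examined. With oil, 12 of 15 were lower and 3 higher, and the median difference was -0.15 against -0.003 for all genes. At an unadjusted p below 0.05, 3 were lower and 1 higher, where 3.63% and 3.73% of all genes were. The median was 0.03, with 8 of 15 higher, when obese controls 4, 5 and 7 were left out. In that fit 3 were higher and 1 lower at that p, against 2.12% and 1.57% of all genes. The sign of the median thus depended on which controls were used, and without obese control 5 alone it was 0.01.

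Scd, the stearoyl-CoA desaturase that makes monounsaturated fat, ran from 5.90 through 6.91 to 9.14 in the obese controls and from 4.49 through 6.21 to 8.51 with oil. The highest control was rat 5 and the highest oil-fed rat was LA rat 7. The difference was -0.88 (SE 0.395, limma adjusted p = 0.659), -0.54 without obese controls 4, 5 and 7 and -0.59 without obese control 5 alone. Scd was 2.02 higher in obese than in lean controls (limma adjusted p = 0.0128), so the oil-fed mean of 6.17 lay between the lean mean of 5.03 and the obese control mean of 7.05.

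Fads1 and Fads2, the desaturases that act on ALA, LA and their products to make longer polyunsaturated fatty acids, had values that depended on 1 rat. Fads2 was 9.52 in obese control 5 and between 5.30 and 5.73 in the other 7 controls, against a range from 5.42 through 5.73 to 6.77 with oil. Fads1 was 7.46 in obese control 5 and between 4.58 and 5.11 in the others, against a range from 4.90 through 5.21 to 6.04 with oil. With all arrays the differences were -0.18 for Fads2 and 0.05 for Fads1, and without obese control 5 they were 0.32 and 0.37. Without obese controls 4, 5 and 7 they were 0.38 (SE 0.141) and 0.40 (SE 0.156), limma unadjusted p = 0.0112 and 0.0162, with no call after adjustment. The same rat had a mean hepatocyte marker level of 9.51, where the other 7 obese controls lay between 4.00 and 4.62 and the oil-fed rats between 4.07 and 4.83. Alb, the liver gene of serum albumin, was 11.83 in that rat and at most 6.54 in the other obese controls. The part of liver RNA in the desaturase values was not tested. The lean means, 5.50 for Fads1 and 6.08 for Fads2, were above the oil-fed means of 5.29 and 5.82.

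**Figure D3:**
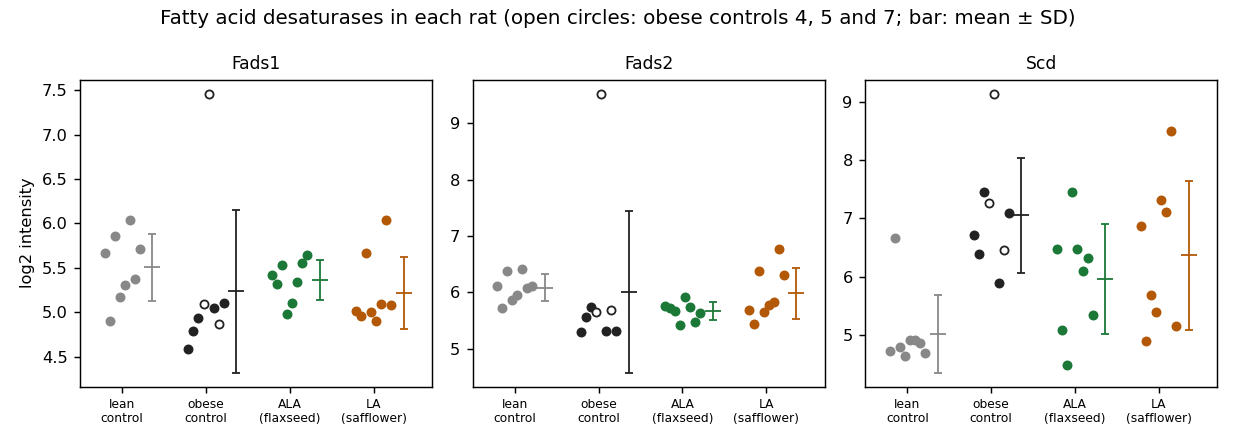
Log2 intensity (y axes) of the desaturase genes Fads1, Fads2 and Scd in every rat of the 4 groups (x axes), with open circles for obese controls 4, 5 and 7 and bars for mean ± SD of 8 rats. Obese control 5 is the highest control for all 3 genes, at 7.46 for Fads1 and 9.52 for Fads2, far from the other 7.

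The regulators Srebf1 and Insig1 had higher means with both oils when all arrays were used, and neither passed the test. Srebf1 ran from 6.23 through 6.88 to 8.16 in the obese controls, from 7.26 through 7.62 to 8.46 in the ALA rats and from 6.63 through 7.11 to 7.72 in the LA rats. The ALA rats lay above every control but rats 1 and 5, while the LA rats lay among the controls. The pooled difference was 0.48 (SE 0.179, limma adjusted p = 0.598), made of 0.79 for ALA and 0.17 for LA, and the oils differed by 0.63 (limma unadjusted p = 0.00477). Obese controls 4 and 7 were the lowest controls for Srebf1 and rat 5 the highest. The pooled difference was 0.46 without all 3, 0.26 without rats 4 and 7 and 0.65 without rat 5. Without rats 4 and 7 the LA mean of Srebf1 lay below the control mean. Insig1 ran from 6.33 through 6.50 to 6.76 in the controls and from 6.38 through 6.76 to 7.20 with oil, with 8 of 16 oil-fed rats above all controls. Its difference was 0.23 (SE 0.0927), or 0.30 without obese controls 4, 5 and 7, with 0.31 for ALA and 0.15 for LA.

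Cholesterol synthesis, the other SREBP-driven pathway, had a median close to that of all genes. Of 15 genes 8 were higher and 7 lower, with a median of 0.001. At an unadjusted p below 0.05, 2 were higher and 2 lower, where 3.73% and 3.63% of all genes were. Without obese controls 4, 5 and 7, 10 of 15 were higher, with a median of 0.04. In that fit 2 were higher and 0 lower at that p, against 2.12% and 1.57% of all genes. Pmvk, phosphomevalonate kinase, was 0.11 higher in both oils, Mvd, which makes isopentenyl diphosphate, 0.09 higher, and Ebp, a sterol isomerase, 0.20 lower on the log2 scale, or 0.12 lower without the 3 controls.

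PPAR targets had medians near that of all genes. Of 16 genes 10 were higher, 2 at an unadjusted p below 0.05, where 3.73% of all genes were, with a median of 0.06. With obese controls 4, 5 and 7 left out, 8 were higher, 0 at that p, and the median was 0.01. Pdk4, the kinase that shuts off pyruvate dehydrogenase, had a mean of 11.60 in the obese controls and 11.61 with oil, a difference of 0.01 with a 95% interval from -0.27 to 0.28. Angptl4, an inhibitor of lipoprotein lipase, had means of 6.85 and 7.04, a difference of 0.19 (SE 0.309). That difference was 0.38 without ALA rat 3, 0.05 without obese control 2 and 0.08 without LA rats 7 and 8. ALA rat 3 was the lowest oil-fed rat for both, at 10.46 and 3.94, near the lean means of 10.25 and 4.15. Both genes were higher in obese than in lean controls, Pdk4 by 1.35 and Angptl4 by 2.71 (limma adjusted p = 3.98e-06 and 2.52e-05). Acot2, a mitochondrial thioesterase, was 0.26 higher with oil and 0.08 without the 3 rats.

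Genes of fuel oxidation lay above the obese controls as groups, and the groups lost that shift without obese controls 4, 5 and 7. For oxidative phosphorylation 33 of 34 genes were higher, where 48.7% of all genes were, and the median was 0.11. Without the 3 rats 3 of 34 were higher and the median was -0.05. For the tricarboxylic acid cycle the counts were 17 of 17 and then 3 of 17, with medians of 0.12 and -0.05. Mitochondrial beta-oxidation had 17 of 20 genes higher with a median of 0.14, then 9 of 20 with a median of -0.002. Leaving out only obese controls 4 and 7 gave medians of -0.02, -0.02 and 0.008 for these 3 lists, whereas leaving out obese control 5 alone left them at 0.10, 0.12 and 0.14.

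Single genes moved in the same way between the fits. Cox5b, a subunit of cytochrome c oxidase, differed by 0.17 with all arrays and by -0.11 without the 3 rats. Echs1, enoyl-CoA hydratase, went from 0.19 to 0.08, and Hadha, a subunit of the trifunctional protein of beta-oxidation, from 0.12 to 0.02. Dbt, the acyltransferase of the complex that decarboxylates branched-chain ketoacids, went from 0.25 to 0.09. Its kinase Bckdk, which inactivates that complex, differed by -0.12 and -0.13, and all 16 oil-fed rats were below the control median (exact two-sided permutation p = 0.00298, limma adjusted p = 0.629). Bckdk was 0.28 higher in obese than in lean controls (limma adjusted p = 0.00471).

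Glucose uptake and glycolysis gave similar counts, with 10 of 12 genes higher, 5 at an unadjusted p below 0.05, where 3.73% of all genes were, and a median of 0.13. Without the 3 rats 6 of 12 were higher, 0 higher and 1 lower at that p, with a median of 0.003. Fatty acid uptake had 11 of 12 genes higher and medians of 0.15 and 0.02. Slc27a1, a fatty acid transport protein, went from 0.40 to 0.20, and Lpl, lipoprotein lipase, from 0.14 to 0.10, with 0.05 when LA rats 7 and 8 were left out and 0.02 when ALA rat 3 and the 3 controls were left out as well. Branched-chain amino acid breakdown had 16 of 18 higher, with medians of 0.08 and -0.004, and ketone body use 4 of 4, with 0.12 and -0.008. Bdh1, the enzyme that oxidises the ketone body beta-hydroxybutyrate, went the other way, from 0.30 to 0.47.

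Obese controls 4 and 7 differed from the other controls in myogenesis and denervation genes and in macrophage markers. The mean level of the myogenesis and denervation list was 7.92 and 8.02 in them, from 6.08 to 6.29 in the other 6 obese controls, and from 5.97 to 7.20 with oil. A high level of this list was not confined to these controls. It was 7.69 in lean rat 2, where the other lean rats lay between 6.15 and 6.31, and LA rat 8 was the highest oil-fed rat. Macrophage markers were 6.07 and 6.29 in the same rats, from 5.27 to 5.68 in the other obese controls, from 5.12 to 5.64 in the ALA rats and from 5.40 to 6.37 in the LA rats. In the myogenesis and denervation list 11 of 13 genes were lower with oil, with a median of -0.28. At an unadjusted p below 0.05, 4 were lower, where 3.63% of all genes were. Leaving out obese controls 4, 5 and 7 gave 8 of 13 higher, 0 in either direction at that p, and a median of 0.11. Chrnb1, a subunit of the muscle acetylcholine receptor, went from -0.38 to -0.13, and Chrng, its fetal subunit, from -0.16 to -0.02. How far these 3 rats set the pooled differences in other genes beyond the values given was not tested.

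**Figure D4:**
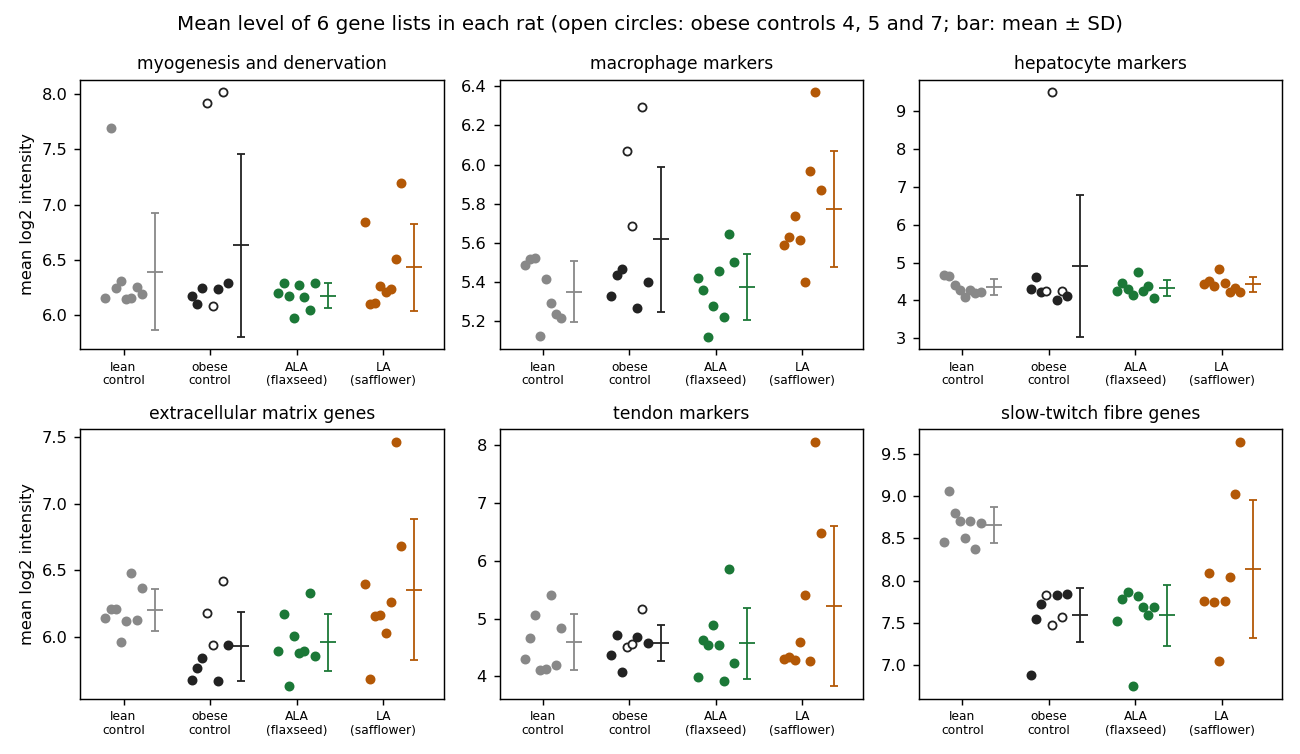
Mean log2 intensity of 6 gene lists (y axes) in every rat of the 4 groups (x axes), with open circles for obese controls 4, 5 and 7 and bars for mean ± SD of 8 rats. Obese controls 4 and 7 are high for myogenesis and macrophage genes, obese control 5 for hepatocyte markers at 9.51, and LA rats 7 and 8 for tendon and slow-twitch genes. Lean rat 2 is also high for myogenesis genes.

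Extracellular matrix genes were higher with oil in both fits. Of 23 genes 20 were higher and 9 had an unadjusted p below 0.05, all of them higher, where 3.73% of all genes were higher at that p. Without obese controls 4, 5 and 7 all 23 were higher and 11 had an unadjusted p below 0.05, where 2.12% of all genes did so. The medians were 0.26 and 0.36. A common direction upward was found for 13 of 23, against 18.5% of all genes, and none passed the adjusted test. Separately by oil the median was 0.05 for ALA and 0.44 for LA with all arrays, and 0.17 and 0.57 without the 3 rats.

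LA rats 7 and 8 stood above the other rats for matrix and tendon genes. Col1a1, the main chain of type I collagen, was 10.78 in LA rat 7, against a range from 6.49 through 6.64 to 7.29 in the obese controls and a median of 7.14 with oil. Its difference was 0.66 (SE 0.338, limma adjusted p = 0.673) and 0.39 without LA rats 7 and 8. Tendon markers had a mean level of 8.07 in LA rat 7 and 6.48 in LA rat 8, from 4.08 to 5.16 in the obese controls and from 3.92 to 5.86 in the other 14 oil-fed rats. Tnmd, which encodes the tendon protein tenomodulin, was 7.40 in LA rat 7 and between 2.98 and 3.46 in the obese controls. Its obese control and lean means were under the limit of 3.35, so Tnmd was tested only because of its values in oil-fed rats. Without LA rats 7 and 8, an alternative chosen after the data were seen, the median of the matrix list was 0.14, that of tendon markers 0.0005 and that of fibroblast markers 0.20. The part of tendon tissue in the remaining values was not tested.

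Fibroblast markers were the list that kept its direction most fully. All 10 were higher in both fits, where 48.7% of all genes were higher with all arrays. At an unadjusted p below 0.05, 4 were higher in each fit, against 3.73% and 2.12% of all genes. A common direction upward was found for 9 of 10, against 18.5% of all genes. The medians were 0.27 and 0.32, with 0.14 for ALA and 0.38 for LA. Dcn, the collagen-binding proteoglycan decorin, ran from 9.73 through 9.89 to 10.11 in the obese controls and from 9.75 through 10.14 to 11.36 with oil, 0.33 higher (SE 0.126) or 0.35 without the 3 rats. Cd34, a surface protein of progenitor and endothelial cells, was 0.28 and 0.24 higher, with all 16 oil-fed rats above the control median. Clec3b, the gene of tetranectin, was 0.30 and 0.20 higher. Among matrix genes Mmp2, a gelatinase, was 0.51 higher (SE 0.168) with 15 of 16 oil-fed rats above the control median, Fbn1, fibrillin-1, 0.36 higher and Col14a1 0.38 higher. Pdgfra, a receptor that marks fibro-adipogenic progenitors, was 0.20 higher, or 0.40 without the 3 rats. Most of these differences were smaller without LA rats 7 and 8. They were then 0.35 for Mmp2, 0.28 for Fbn1, 0.28 for Col14a1, 0.21 for Dcn, 0.22 for Cd34 and 0.11 for Pdgfra, while Clec3b stayed at 0.30.

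**Figure D5:**
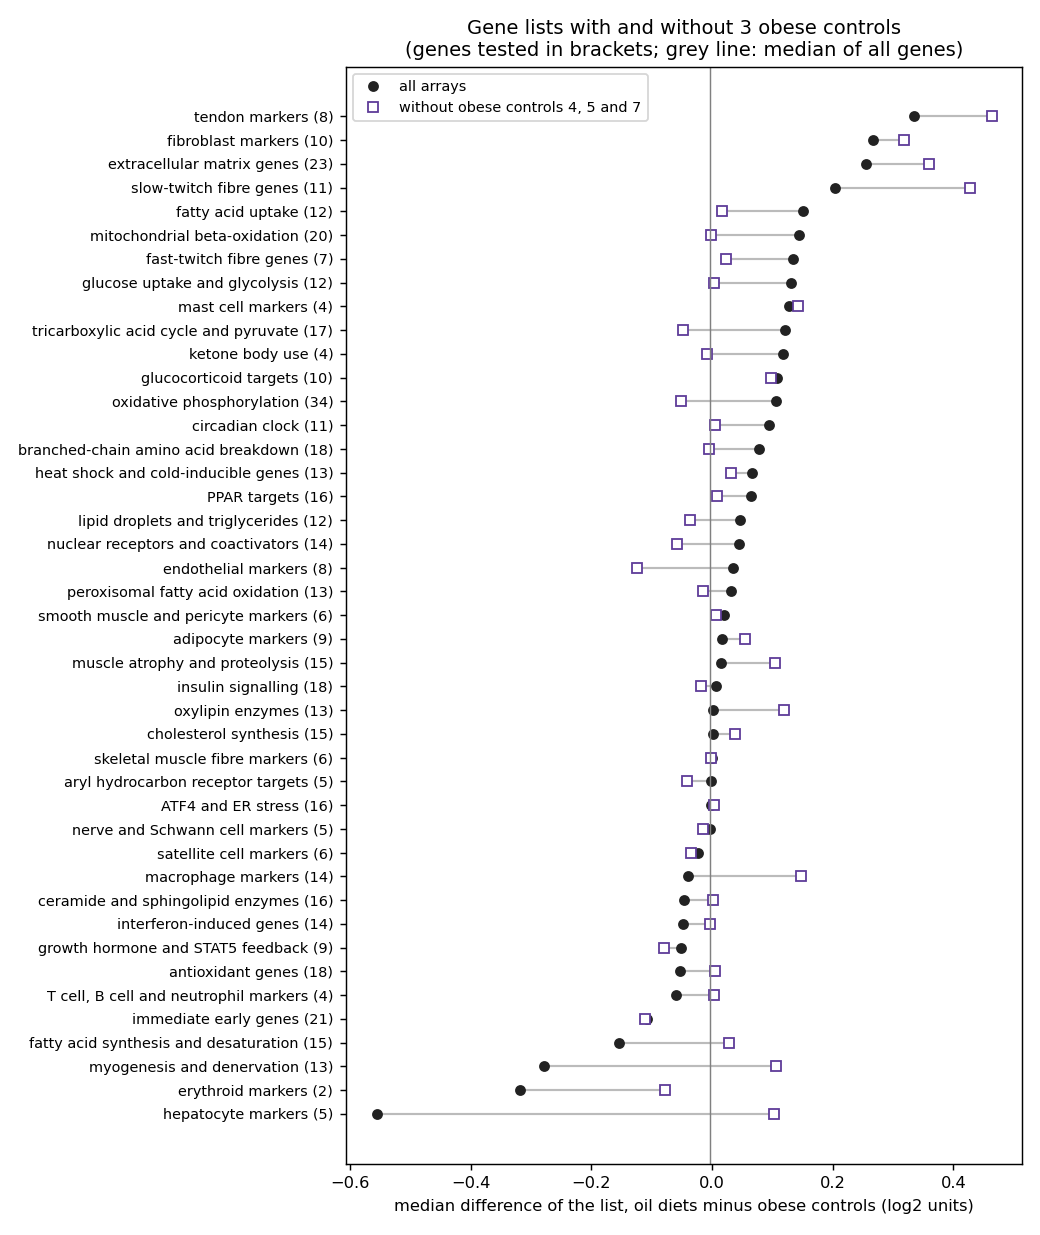
Median log2 difference of each gene list (x axis), oil diets minus obese controls, for 43 lists (y axis, genes tested in brackets). Filled circles use all arrays and open squares leave out obese controls 4, 5 and 7. Matrix, fibroblast, tendon and slow-twitch lists stay above 0.2 in both fits, while oxidative phosphorylation, myogenesis and hepatocyte lists cross 0.

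Of the 43 lists, 27 had a median above 0. In 18 the median was 0.1 or more from 0, and 6 of these kept their sign and that size without obese controls 4, 5 and 7. These were extracellular matrix, fibroblast, tendon, slow-twitch fibre and mast cell genes on the higher side and immediate early genes on the lower side. For tendon markers the oils had opposite signs with all arrays, with medians of -0.04 for ALA and 0.71 for LA. Without the 3 controls these were 0.13 and 0.83, and 3 of 8 tendon genes had a common direction. Mast cell markers rested on 4 tested genes, with medians of 0.13 and 0.14.

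Slow-twitch fibre genes had a median of 0.20, with 0.19 for ALA and 0.22 for LA. Of 11 genes 7 were higher, 4 at an unadjusted p below 0.05, where 3.73% of all genes were. Leaving out obese controls 4, 5 and 7 gave 8 of 11 higher, 1 at that p, and a median of 0.43, with 0.05 for ALA and 0.69 for LA. The mean level of the list was 9.03 in LA rat 7 and 9.65 in LA rat 8, from 6.75 to 8.09 in the other oil-fed rats and from 6.88 to 7.85 in the obese controls. The lean controls lay between 8.37 and 9.06. Without LA rats 7 and 8 the pooled median was 0.14.

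Casq2, the calcium store protein of slow and cardiac muscle, ran from 6.92 through 7.21 to 7.44 in the obese controls, from 6.54 through 7.49 to 8.18 in the ALA rats and from 7.50 through 8.05 to 9.54 in the LA rats. All 8 LA rats lay above all obese controls, and the ALA rats overlapped with them. The pooled difference was 0.65 (1.57-fold, SE 0.221, limma adjusted p = 0.598), with 0.19 for ALA and 1.11 for LA, and the oils differed by -0.93, ALA minus LA (limma unadjusted p = 0.000951). Myh7, the slow myosin heavy chain, was 1.04 higher with oil (SE 0.413), 0.59 without obese controls 4, 5 and 7 and 0.73 without LA rats 7 and 8. Tnnt1, slow troponin T, was 0.89 higher, and 0.59 and 0.57 in those fits. Atp2a2, the slow calcium pump SERCA2, was 0.47 higher, and then 0.43 and 0.23. Without these 5 rats and ALA rat 3 the differences shrank further, to 0.22 for Myh7, 0.21 for Tnnt1 and 0.13 for Atp2a2, while that of Casq2 was 0.55. Ldhb, the heart form of lactate dehydrogenase, was 0.52 higher, 0.16 without the 3 controls and 0.05 without all 6 rats.

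Fast-twitch fibre genes were higher in 7 of 7 cases, 4 at an unadjusted p below 0.05, where 3.73% of all genes were, with a median of 0.13. Leaving out obese controls 4, 5 and 7 gave 6 of 7 higher, 0 at that p, and a median of 0.02. Actn3, the alpha-actinin of fast fibres, ran from 10.99 through 11.87 to 11.91 in the obese controls and from 11.72 through 11.94 to 12.18 with oil. Its difference was 0.29 (SE 0.0917) and then 0.08. Mybpc2, fast myosin-binding protein C, went from 0.30 to 0.04, and Myh4, the fastest myosin heavy chain of rat limb muscle, from 0.11 to 0.03.

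Immediate early genes, which respond within minutes to stress or contraction, were lower in 16 of 21 cases, 3 at an unadjusted p below 0.05, where 3.63% of all genes were, with a median of -0.11. Without obese controls 4, 5 and 7 the median was -0.11 again, but 1 gene was left at that p, and without obese controls 4 and 7 the median was -0.05. Egr1, a transcription factor, ran from 6.69 through 7.53 to 8.61 in the obese controls and from 5.84 through 6.82 to 8.35 with oil, a difference of -0.65 (SE 0.259, limma adjusted p = 0.598) and -0.60 without the 3 rats. Fos and Junb, subunits of the AP-1 factor, differed by -0.69 and -0.64, and without those rats by -0.50 and -0.26, and Klf6 by -0.26 and -0.24. The ranges overlapped in all 4 genes.

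Stress-related genes gave mixed values. Rbm3, a cold-inducible RNA-binding protein, ran from 7.75 through 8.06 to 9.07 in the obese controls, from 7.55 through 7.72 to 7.92 in the ALA rats and from 7.51 through 7.92 to 8.34 in the LA rats. Obese controls 4, 6 and 7 were the highest, and 8 oil-fed rats lay below all controls. The difference was -0.50 (SE 0.131, limma adjusted p = 0.538) and -0.30 without obese controls 4, 5 and 7, and Rbm3 was 0.62 higher in obese than in lean controls (limma adjusted p = 0.0223). Sod3, the extracellular superoxide dismutase, went from 0.43 to 0.13 between the fits, and Txnrd1, thioredoxin reductase, from -0.27 to -0.15. Fbxo31, a ubiquitin ligase subunit, went from -0.32 to -0.15, and Bnip3, a mitophagy receptor, was 0.11 higher in both.

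Macrophage markers had no pooled direction, with 6 of 14 higher and a median of -0.04. With the 3 rats left out, 12 of 14 were higher and the median was 0.15, with 0.38 for LA and -0.003 for ALA. Lyz2, the macrophage lysozyme, ran from 7.52 through 7.80 to 9.51 in the obese controls, from 6.27 through 7.06 to 7.93 in the ALA rats and from 7.38 through 8.08 to 8.72 in the LA rats. The LA rats lay with the controls and most ALA rats below them, and the pooled difference of -0.50 was made of -0.996 for ALA and 0.002 for LA. It was -0.07 without the 3 rats. In the fit without them Lyz2 was the 1 gene (0.00916%) called between the oils, -0.998 for ALA minus LA with a limma adjusted p of 0.0364. With all arrays it was not called, the smallest limma adjusted p of any gene between the oils being 0.460. The difference between the oils uses no obese control, so leaving out these rats changed the estimate of spread and not the difference. Cd74, of antigen presentation, was 0.23 higher and then 0.52, and C1qa, of complement, 0.26 and then 0.48.

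Insulin signalling and the circadian clock had medians of 0.007 over 18 genes and 0.09 over 11 genes in the pooled comparison, with no gene at an unadjusted p below 0.05. Irs1, the insulin receptor substrate that was 1.01 lower on the log2 scale in obese than in lean controls (limma adjusted p = 0.0165), had a mean of 7.14 in the obese controls and 7.45 with oil. The difference was 0.31 (SE 0.202, 95% interval -0.10 to 0.72) and 0.01 without obese controls 4, 5 and 7. Bmal1, a core clock gene, had means of 6.09 and 6.27.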

How the data were processed

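RNA from 32 red tibialis anterior samples was measured on 1 array each, labelled from 100 ng of total RNA per the labels' protocols. The authors deposited log2 intensities, made with RMA per the submitters' processing notes (version not given in the sources used here), so shifts shared by most genes were removed upstream. Of 36685 features, 14824 had 1 gene symbol, 829 several and 21032 none. The brightest feature of each of 14557 genes was kept, and the dimmest 25% (below 3.35) were left out.

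limma 3.58.1 (R 4.3.3) was fitted to 10918 genes over all 32 arrays with 1 mean per group (28 residual degrees of freedom), and the oil mean weighted ALA and LA equally. P-values were Benjamini-Hochberg adjusted over all genes and called below 0.05. Single genes were also tested by exact permutation over all 735471 divisions of 24 arrays. The fit was tested on simulated data. The labels do not say that rats were housed or processed separately, so p-values measure the spread between these samples. The number of arrays limits the precision. Array medians were 3.83 to 3.99, and no 2 arrays were identical.

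The named genes were, per direction, the 12 with a common direction and the smallest larger p of both fits, since none was called, plus up to 5 members of each list described and those that define it. Symbols of unnamed loci and of olfactory, vomeronasal and small RNA genes were passed over. The 30 pathway and 13 marker lists and all members were chosen with earlier results of these data known. Lists were described by counts and medians, without a test. Rats were not treated as paired by replicate number in the main fit. Deviations of 24 same-numbered pairs had a median correlation of 0.0816 (-0.176 to 0.297), and 11 exceeded 0.1. Differently numbered pairs had a median of -0.0151. Whether same-numbered rats shared a step of handling was not tested. Promoters came from RefSeq tables on GRCr8. Alternatives were other filters on dim genes, every feature, a second quantile normalisation, median centring, a robust trended prior, array weights, only the groups compared, a replicate block, and arrays left out.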

Additional observations from a re-analysis of the deposited data

Results flagged for a closer look

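In 252 groups of 8 rats, formed by the genes and list means described above, 22 had a highest or lowest rat set apart from the rest by Dixon's test (8.73%), where chance gives about 1 in 20. Obese control 5 was such a rat for Fads1 (7.46), Fads2 (9.52), Alb (11.83) and the hepatocyte marker mean (9.51). LA rat 7 was one for Col1a1 (10.78), Pdgfra (6.43), Tnmd (7.40) and, on the low side, Irs1 (6.02). ALA rat 3 was low for Col3a1 (6.41), Serpinh1 (6.76) and Pdk4 (10.46).

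The other obese controls set apart were rat 8 for Ppl (5.49), rat 7 for Hadha (10.27, low) and rat 1 for the slow-twitch mean (6.88, low). Dixon's test compares the extreme rat with its nearest neighbour, so a pair of rats that lie together is not flagged. Obese controls 4 and 7 were such a pair for Parm1 (7.24 and 7.37) and for the myogenesis and denervation mean (7.92 and 8.02). ALA rat 4 was low for Ebp (3.94) and for the slow-twitch mean (6.75), and ALA rat 1 was high for Junb (6.37). LA rat 5 was low for Acot2 (7.55) and Hadha (10.46), LA rat 1 was high for Sod3 (8.92) and Chrng (4.29), and LA rat 8 was high for Fos (8.27).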

How the results depend on the processing

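No gene was called in the pooled comparison under any alternative, nor when any array was left out (0 to 0 genes for both oils, for each oil and between the oils; none with a common direction); the smallest adjusted p of the pooled comparison was then 0.174. Over all 23408 features above the limit, named or not, 0 were called (smallest adjusted p 0.137). With no filter on dim genes, 1 gene was called for LA and 1 between the oils, and between the oils also 1 without obese controls 4, 5 and 7 and 1 without 4 and 7. With the replicate number as a block, 0 genes were called (smallest adjusted p 0.561), 847 had an unadjusted p below 0.05 and 4273 a common direction. The unadjusted count of 803 became 423 with array weights, 403 without obese controls 4, 5 and 7, 465 without 4 and 7, 459 without these 3, LA rats 7 and 8 and ALA rat 3, and 437 to 1095 with each array left out (lowest without obese control 7, highest without obese control 1). The 157 genes below 0.05 in both fits with a common direction became 97 with the dimmest 50% left out, 287 with array weights, and 129 to 193 with each array left out; the 4377 with a common direction became 2667 with the dimmest 50% left out and 4239 to 4983. Without the 6 arrays the circadian clock median was -0.04. Signs reversed for 6 genes: Alb 0.21 (6 arrays) and 0.11 (controls 4, 5 and 7); Bmal1 -0.16 and -0.028; Cox5b -0.084, -0.11 and -0.012 (controls 4 and 7); Fads1 -0.031 (controls 4 and 7), -0.0021 (LA rats 7 and 8) and -0.014 (with ALA rat 3 left out too); Fads2 0.29, 0.38 and 0.075 (array weights); Pdk4 -0.0071 (controls 4, 5 and 7) and -0.016 (LA rats 7 and 8). With each array left out, Alb ran from -0.77 to 0.28, Fads1 from -0.039 to 0.37, Fads2 from -0.29 to 0.32 and Pdk4 from -0.023 to 0.081. The causes were not tested.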
